A study of Arabidopsis thaliana with 96 samples.

Results

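The root epidermis was examined in 6 of the 96 arrays of a study of Arabidopsis thaliana roots, those of epidermal cells kept in standard medium. They were chosen by their labels (epidermis, standard medium) and hold 3 replicates at 1 h and 3 at 48 h. Their levels were set against the mean of the 6 cortex, 6 endodermis and 6 stele arrays from the same medium and times, each type counting equally. The plants were Columbia seedlings aged between 5 and 7 days after germination, and nothing else was stated of their genotype beyond the green fluorescent protein (GFP) reporter each line carried. Roots were digested into protoplasts, single cells without walls, and fluorescent cells were collected: WER::GFP for the epidermis, COR::GFP for the cortex, SCR::GFP for the endodermis and WOL::GFP for the stele. In the remaining 72 arrays, seedlings of the same 4 lines had spent 1, 3, 8, 20, 32 or 48 h in 140 mM NaCl. Since each type is defined by its own reporter line and sort, line, sort and cell type cannot be told apart here.

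The epidermis is the outermost layer of the root. Some of its cells grow root hairs, which take up water and nutrients, and the others stay hairless, a choice in which the WER transcription factor takes part on the hairless side. The WER promoter is also known to be active in the lateral root cap, the sheath of cells that covers the epidermis near the tip. The cortex and endodermis lie beneath it, and the endodermis carries the Casparian strip, a lignin band that seals the space between cells around the stele.

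All values are log2 expression levels, so a difference of 1 is 2-fold, and a gene was called where the difference was at least 1 with an adjusted p under 0.05 (limma, Benjamini-Hochberg over 7281 genes). The first principal component of the 24 standard medium arrays, with 49.0% of the variance, separated the epidermis from the rest. Epidermis arrays lay between 47.851 and 65.301 on it, against -11.195 to -8.21 for cortex, -38.035 to -30.379 for endodermis and -21.999 to -5.438 for stele. The mean correlation of an array with the others of its group was 0.933 to 0.996 (median 0.983). The arrays that correlated least with their own group were epidermis 48 h replicate 1 (mean r 0.9405) and replicate 3 (0.9434) and stele 1 h replicate 3 (0.9333), and the counts of called genes were also computed without them. Differences between 3′ and 5′ control probe sets, a sign of RNA quality, overlapped between the epidermis and every other type for actin, GAPDH and ubiquitin, with the exception that ubiquitin in the epidermis (1.191 to 1.4044) lay above the endodermis (0.8929 to 1.1091).

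**Figure D1:**
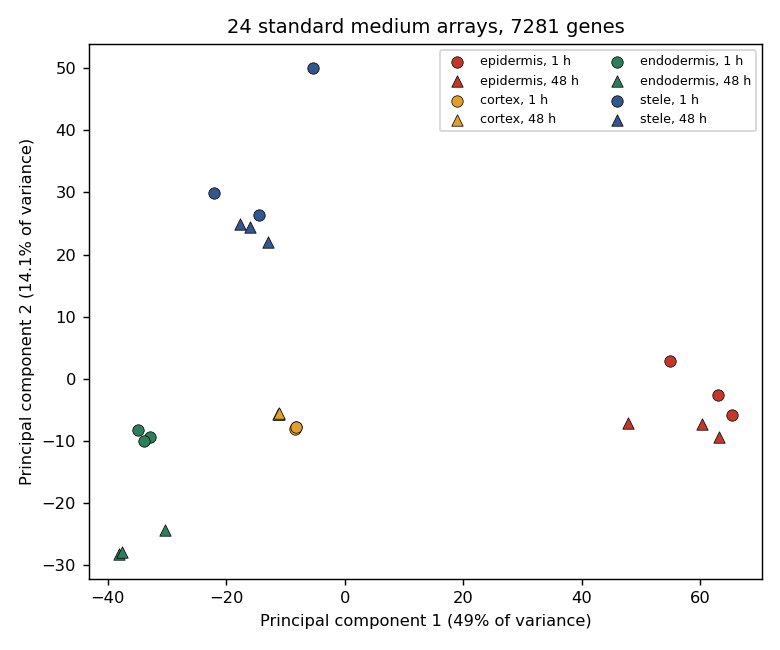
Principal components 1 and 2 of the 24 standard medium arrays over 7281 genes, with circles for 1 h and triangles for 48 h. The 6 epidermis arrays (red) sit between 47.851 and 65.301 on component 1, to the right of all 18 other arrays, and 1 stele array at 1 h stands apart on component 2.

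In standard medium 440 genes were higher in the epidermis (6.04% of those tested) and 815 were lower (11.2%), 17.2% in all. The median difference was 1.47 for the higher genes and -1.68 for the lower ones. Of the higher genes 112 differed by at least 2 and 26 by at least 3, and of the lower genes 304 differed by at least 2 and 110 by at least 3. The share of calls on the higher side, 35.1%, depended on scaling: it was 42.0% with 531 higher and 732 lower after quantile normalization, and 48.2% with 615 higher and 661 lower after centring each array on its median. The median difference over all tested genes was 0.02 as deposited, 0.12 after quantile normalization and 0.18 after median centring.

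All 6 epidermis arrays lay above all 18 others for 232 of the 440 higher genes, and below all 18 for 544 of the 815 lower genes. Over all tested genes such separation was found for 4.89% above and 9.06% below. For 469 of the lower genes the epidermis mean was under 5, a level at which 6075 genes went untested because no group reached it. For 116 of the higher genes the mean of each other type was under 5. The median level of the higher genes was 7.35 in the epidermis, 5.87 in cortex, 5.30 in endodermis and 5.63 in stele. That of the lower genes was 4.68 in the epidermis, 6.68 in cortex, 7.11 in endodermis and 6.62 in stele.

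The differences were spread unevenly over the inner types. Cortex had the next highest level for 256 of the 440 higher genes, stele for 142 and endodermis for 42. Among the 815 lower genes, endodermis was highest for 458, cortex for 227 and stele for 130. Set against each type alone, the epidermis was higher for 427 genes and lower for 830 against cortex (5.86% and 11.4%), higher for 669 and lower for 878 against endodermis (9.19% and 12.1%), and higher for 537 and lower for 863 against stele (7.38% and 11.9%). It was higher than each of the 3 types for 243 genes (3.34%) and lower than each for 485 (6.66%). All of these were also called against the mean, which follows from the arithmetic, since that difference is the average of the 3.

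Among genes with a probe set of their own, the largest excess belonged to AT1G21340, which encodes a Dof-type zinc finger transcription factor. Its level was 8.26 at the lowest, 9.34 at the median and 10.74 at the highest over the epidermis arrays, against 5.93, 6.24 and 6.56 in cortex, 4.82, 5.23 and 6.26 in endodermis and 4.28, 4.85 and 5.17 in stele. The epidermis arrays stood clear of all others, and the difference was 3.90 ± 0.22 (SE; adjusted p = 2.34e-26, limma). It was 3.88 at 1 h and 3.91 at 48 h. A gene of the glucose-methanol-choline oxidoreductase family, AT3G56060, came next at 3.42 ± 0.18 (SE). Here and below, SE and p-values rest on 1 spread per gene pooled over all 32 groups. Array weights fitted per cell type, lower where arrays scatter more, were 0.61 in epidermis, 2.32 in cortex, 0.89 in endodermis and 0.79 in stele. SE and p-values can therefore understate the spread of the epidermis. With these weights the same 440 higher and 815 lower genes were called. Equal weights within a type leave every difference unchanged, and a call also needs a difference of at least 1. The unchanged counts therefore do not measure how far the spread is understated.

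The rest of the leading 12 were of varied function. sks16, a relative of the cell wall protein SKU5, averaged 10.67 ± 0.82 in the epidermis, 7.78 ± 0.14 in cortex, 6.82 ± 0.54 in endodermis and 7.24 ± 0.41 in stele (SD, n = 6 each). The 2 serine carboxypeptidase-like genes scpl28 and scpl25 differed by 3.41 and 3.28. AT2G43600, of the chitinase family, differed by 3.37, with 9.52, 10.70 and 11.85 as lowest, median and highest in the epidermis and 8.02 as the highest of the other 18 arrays. AT1G50720, of the STIG1 family of small cysteine-rich secreted proteins, ranged over 5.54 to 7.62 in the epidermis and reached 3.60 in cortex, 3.73 in endodermis and 3.40 in stele, a difference of 3.31.

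AT5G58784, a cis-prenyltransferase of the family that makes dolichol precursors, averaged 10.86 ± 0.72 in the epidermis, 8.11 ± 0.35 in cortex, 7.02 ± 0.68 in endodermis and 7.27 ± 0.96 in stele (SD, n = 6 each). AT2G37700, a relative of the wax synthesis gene CER1, differed by 3.27. AT5G16230, of the acyl-ACP desaturase family that introduces double bonds into fatty acids, differed by 3.24, with 8.46, 9.76 and 10.58 as lowest, median and highest in the epidermis and 7.50 as the highest of the other arrays. AT4G01240 and AT4G12840 complete the leading 12 with differences of 3.34 and 3.22. Cortex had the next highest mean for all 12, each gene was called against each other type, and the largest adjusted p among them was 6.14e-20 (limma).

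**Figure D2:**
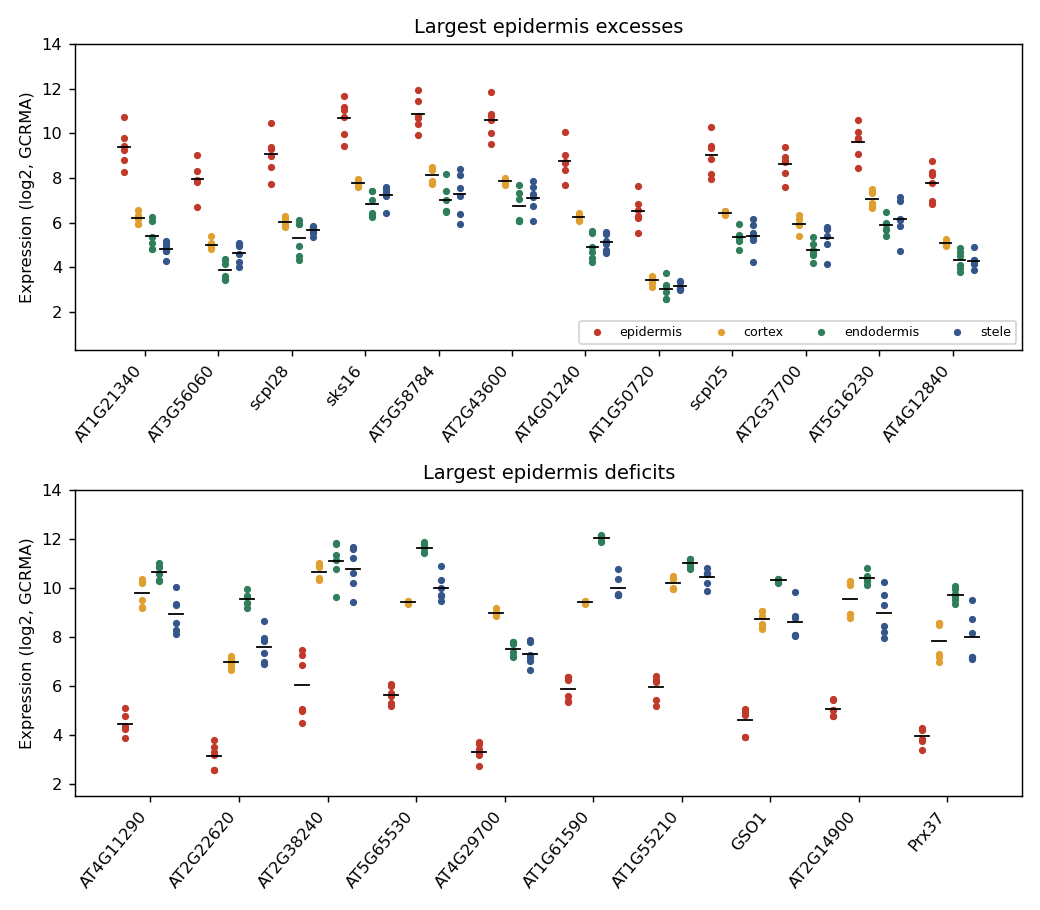
Levels (log2) of the 12 genes with the largest epidermis excess (top) and the 10 with the largest deficit (bottom) in the 24 standard medium arrays; each point is an array, coloured by cell type, and black bars are means of 6 arrays. In every gene shown the 6 epidermis arrays lie beyond the 18 others, since the genes were chosen that way, and the cortex (yellow) has the next highest mean in the top panel.

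Among the same genes, the largest deficit was that of AT4G11290, a class III peroxidase, one of the secreted enzymes that oxidise phenolic compounds in the wall. It had 3.87, 4.32 and 5.10 as lowest, median and highest in the epidermis, against 9.20, 9.86 and 10.35 in cortex, 10.28, 10.72 and 11.04 in endodermis and 8.11, 8.93 and 10.03 in stele. The gap between the highest epidermis array and the lowest other array exceeded the spread within any type, and the difference was -5.36 ± 0.14 (SE; adjusted p = 3.15e-44, limma). Prx37, of the same family, averaged 3.96 ± 0.35 in the epidermis, 7.85 ± 0.76 in cortex, 9.72 ± 0.28 in endodermis and 7.99 ± 1.00 in stele (SD, n = 6 each).

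Both tested endodermis markers, kinases of Casparian strip formation, were among the leading deficits. GSO1, a receptor kinase that surveys the integrity of the strip, had 3.91, 4.89 and 5.08 as lowest, median and highest in the epidermis, against 8.34, 8.70 and 9.07 in cortex, 10.20, 10.34 and 10.39 in endodermis and 8.05, 8.44 and 9.84 in stele. AT1G61590 (SGN1), a cytoplasmic kinase of the same signalling pathway, had 5.34, 5.91 and 6.38 in the epidermis, against 9.34, 9.45 and 9.50 in cortex, 11.88, 12.10 and 12.17 in endodermis and 9.70, 9.74 and 10.78 in stele. Both were highest in endodermis but stood far above the epidermis in cortex and stele also. The differences were -4.60 ± 0.13 for GSO1 and -4.61 ± 0.17 for AT1G61590 (SE). AT5G65530, a receptor-like cytoplasmic kinase, followed the same order of types, with means of 5.66 ± 0.37 in the epidermis, 9.43 ± 0.05 in cortex, 11.65 ± 0.18 in endodermis and 10.02 ± 0.52 in stele (SD, n = 6 each).

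The other leading deficits were of varied function. AT2G22620, of the rhamnogalacturonate lyase family of pectin-degrading enzymes, differed by -4.89, with an epidermis range of 2.56 to 3.80. AT2G38240, a 2-oxoglutarate dioxygenase that hydroxylates the hormone jasmonate, differed by -4.82. It had the widest epidermis range of the 10, mostly between the times, with 4.49 to 5.06 at 1 h and 6.87 to 7.48 at 48 h. AT4G29700, related to nucleotide pyrophosphatases, differed by -4.62 and was highest in cortex, with 2.74 to 3.72 in the epidermis and 8.86 to 9.17 in cortex. AT1G55210, a dirigent protein, and AT2G14900, of the gibberellin-regulated family, differed by -4.61 and -4.57. Endodermis had the highest mean for 9 of the 10, all 10 were called against each other type, and the largest adjusted p was 5.66e-33 (limma).

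Lists of genes with known roles were compiled with earlier results of these data in view, and their counts are read against the 6.04% higher and 11.2% lower over all genes. Tested members were few for several lists because many of their genes have no probe set of their own in the annotation used here. WER, SCR and WOL are not analysed here, nor is any member of the lists of epidermal surface (L1) genes, root hair regulators, auxin transport, suberin, flavonoid synthesis and laccases. In these sorted populations a smaller share of cells that express a gene cannot be told apart from less RNA of it per cell.

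Markers of the inner tissues were low in the epidermis. Both cortex markers were called lower. AT1G62510, of the protease inhibitor and lipid transfer family, had 4.01, 5.16 and 5.91 as lowest, median and highest in the epidermis, against 10.06, 10.34 and 10.62 in cortex, 9.10, 9.59 and 10.13 in endodermis and 7.67, 8.24 and 8.86 in stele. AT1G09750, an aspartyl protease family gene, had 3.17, 3.47 and 3.96 in the epidermis, against 6.21, 7.09 and 8.47 in cortex, 5.27, 5.62 and 6.17 in endodermis and 3.07, 3.46 and 3.76 in stele. For AT1G09750 epidermis and stele overlapped throughout (difference 0.08 ± 0.13, SE). The stele list had 1 tested member, LHW, a transcription factor of vascular initials, whose difference of -0.36 was not called and whose highest type was not stele.

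Over both times together no root hair gene stood out in the epidermis. None of the 6 tested members of that list was called either way and their median difference was -0.15, which was 0.01 after median centring and 0.13 without epidermis 48 h replicates 1 and 3. EXPA7, an expansin of growing hairs, had 6.35, 9.54 and 10.55 as lowest, median and highest in the epidermis, against 8.97, 9.12 and 9.21 in cortex, 8.18, 9.12 and 10.10 in endodermis and 9.38, 10.04 and 10.44 in stele. The epidermis overlapped each other type, and the difference of -0.24 ± 0.26 (SE) had an adjusted p of 0.438 (limma). EXPA18, a second hair expansin, differed by -0.12 ± 0.26 and the hair peroxidase AT3G49960 by 0.07 ± 0.31 (SE). SCN1, which confines hair growth to 1 site, differed by -0.19, the peroxidase AT1G34510 by -0.20 and XTH26, a wall-remodelling enzyme of hairs, by 0.54. At 1 h alone the differences ran from 0.26 (SCN1) to 1.00 (XTH26), and only XTH26 was called (adjusted p = 0.00318, limma). At 48 h alone they ran from -0.90 (EXPA7) to 0.09 (XTH26), with none called. No change between the times was called (lowest adjusted p 0.112, SCN1, limma). Against stele alone AT1G34510 and EXPA18 were lower in the epidermis (differences -1.95 and -1.12), and against endodermis alone XTH26 and AT1G34510 were higher (1.78 and 1.54).

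The mean of these hair genes had an SD of 1.49 over the 6 epidermis arrays, 0.45 in cortex, 0.64 in endodermis and 0.64 in stele. All 6 genes had their lowest epidermis value in 1 array, 48 h replicate 1, and over the other 5 epidermis arrays the SD was 0.80. The mean of the 6 genes was 8.2075, 8.6846 and 9.3936 in the 1 h replicates and 5.1265, 7.213 and 8.1001 in the 48 h replicates, against medians of 7.59 in cortex, 7.34 in endodermis and 8.93 in stele. That array was the lowest of all 24. In it AT3G49960 stood at 5.55 and EXPA18 at 5.84, against at least 9.10 and 8.11 in the other 5 epidermis arrays.

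The root cap list was higher in the epidermis, with 3 of 4 tested members called and a median difference of 1.73. AT1G65570, a polygalacturonase of the root cap, had 7.93, 9.19 and 10.25 as lowest, median and highest in the epidermis, against 6.42, 7.24 and 7.98 in cortex, 4.79, 5.83 and 7.25 in endodermis and 3.77, 6.07 and 7.21 in stele. The epidermis arrays overlapped those of cortex only at the edge, and the difference was 2.74 ± 0.26 (SE; adjusted p = 2.07e-15, limma). AT4G04460, an aspartic protease (PASPA3) of cells that undergo developmental death, differed by 2.43 ± 0.18, and scpl48, a carboxypeptidase of the same cells, by 1.03 ± 0.16 (SE). The call of scpl48 was lost on leaving out any of 4 epidermis or 2 stele arrays (lowest difference 0.87). AT4G18425 differed by 0.93 and was not called. Against each other type alone, AT1G65570 and AT4G04460 were called higher throughout. The gene scpl48 was called against cortex (1.32) but not against endodermis (0.9991) or stele (0.76). AT4G18425 was called against cortex (1.05) and endodermis (1.75) and was level with stele (-0.01). No member of the list had all its epidermis arrays above all others.

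The mean of the 4 root cap genes ranged from 8.3836 to 10.012 in the epidermis (median 9.51), against 7.2133 to 8.2092 in cortex, 6.7305 to 7.6174 in endodermis and 6.1366 to 9.1733 in stele. The array with the highest value was epidermis 48 h replicate 1, the one with the lowest hair gene mean, and the lowest epidermis value was that of 48 h replicate 3. The same 2 arrays were the extremes of the genes called higher in the epidermis, whose median level was 7.83 in 48 h replicate 1 and 6.98 in 48 h replicate 3. The part of root cap cells in these differences was not tested.

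**Figure D3:**
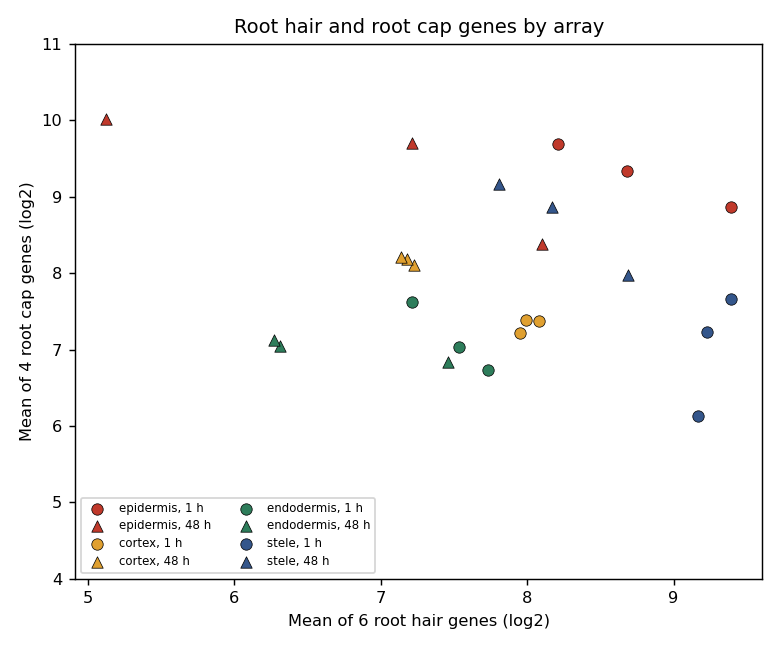
Mean level (log2) of 6 root hair genes (x axis) and 4 root cap genes (y axis) in each of the 24 standard medium arrays, with circles for 1 h and triangles for 48 h. Epidermis arrays (red) spread from 5.1265 to 9.3936 on the hair axis and overlap the other types, and lie between 8.3836 and 10.012 on the cap axis, with only stele arrays at 48 h reaching into that range.

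Of epidermal patterning genes 2 were tested. JKD, a zinc finger factor known to act from the ground tissue on the pattern of the epidermis, had 2.65, 2.99 and 3.33 as lowest, median and highest in the epidermis, against 5.13, 5.58 and 6.05 in cortex, 5.15, 5.46 and 5.86 in endodermis and 3.51, 4.08 and 4.80 in stele, a difference of -2.04 ± 0.11 (SE; adjusted p = 4.48e-26, limma). GEM, which acts on hair patterning through chromatin, averaged 0.36 more in the epidermis and was not called. Of the 3 tested genes of endoplasmic reticulum bodies, defence organelles of Brassicaceae roots, NAI2 was called. NAI2, needed to form the bodies, had 10.98, 11.03 and 11.09 as lowest, median and highest in the epidermis, and no other array exceeded 10.30 (difference 1.19 ± 0.16, SE). Against each type alone NAI2 was called against endodermis and stele but not against cortex (0.88). The regulator NAI1 differed by 0.94 and the beta-glucosidase PYK10, very abundant in all 4 types, by 0.54, and neither was called. Under quantile normalization, under median centring and without epidermis 48 h replicates 1 and 3, 2 of the 3 were called.

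Dirigent proteins and enzymes of monolignol metabolism, which supply and place the units of lignin, were mostly lower in the epidermis. Of 7 tested dirigent proteins, which guide the coupling of phenolic radicals, 6 were lower with all 6 epidermis arrays below the 18 others, none was higher, and the median difference was -3.98. AT2G39430 averaged 6.23 ± 0.54 in the epidermis, with 6.99 as its highest array, against 9.44 ± 0.06 in cortex, 11.71 ± 0.25 in endodermis and 10.26 ± 0.67 in stele (SD, n = 6 each). AT4G13580 and AT4G11210 differed by -3.98 and -4.30. Of 5 tested enzymes of monolignol metabolism 3 were lower and 1 was higher. CCR2, a cinnamoyl-CoA reductase, differed by -4.23 ± 0.13, and HCT, which acts earlier in the pathway, by -2.78 ± 0.11 (SE).

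Of the 3 tested monolignol glucosyltransferases 1 was lower, 1 was higher and UGT72E2, at 0.62, was not called. UGT72E3 had 3.82, 4.12 and 4.26 as lowest, median and highest in the epidermis, against 5.90, 6.55 and 7.01 in cortex, 8.18, 8.54 and 8.75 in endodermis and 5.50, 6.18 and 7.51 in stele. UGT72E1 had 6.08, 6.46 and 8.62 in the epidermis, against 3.96, 4.72 and 5.41 in cortex, 3.00, 3.65 and 4.36 in endodermis and 3.07, 3.38 and 4.99 in stele. Neither UGT72E3 nor UGT72E1 overlapped between the epidermis and another type, and the differences were -3.03 ± 0.12 and 2.91 ± 0.18 (SE).

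Class III peroxidases split. Of 40 tested members 4 were higher and 13 lower, and 10 of the lower and 2 of the higher had epidermis arrays wholly beyond the others. The median difference of the 40, -0.20, was close to that of all genes. Beside AT4G11290 and Prx37, the largest deficits were AT1G44970 (-4.53 ± 0.17, SE) and AT5G66390 (-4.19 ± 0.14, SE). AT5G66390 had 7.16, 7.75 and 8.65 as lowest, median and highest in the epidermis and 12.99, 13.12 and 13.19 in endodermis. The largest excess in the family, named after its value was seen, was that of AT5G24070, at 3.21.

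Of expansins, which loosen growing walls, 12 were tested, with 3 higher and 1 lower. EXPA9 averaged 11.53 ± 0.30 in the epidermis (SD, n = 6) with 11.19 as its lowest array, and no other array exceeded 10.32 (difference 1.63 ± 0.13, SE). EXLA2 and EXPA4 differed by 1.49 and 1.10 and EXLB1 by -1.68, and the median of the 12, -0.10, changed sign to 0.02 and 0.07 under quantile normalization and median centring. Xyloglucan endotransglucosylases, which cut and rejoin wall xyloglucan, had none higher and 4 of 8 lower. XTH21 had 2.80, 3.22 and 3.58 in the epidermis, against 6.04, 6.21 and 6.48 in cortex, 7.08, 7.39 and 7.76 in endodermis and 6.51, 6.90 and 7.31 in stele. XTH20, XTH16 and XTH32 differed by -2.43, -1.74 and -1.19. XTH32 was not called against endodermis alone (-0.39). Its call against the mean was lost at 48 h alone (-0.88) and with cortex left out of the other types (-0.72).

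Serine carboxypeptidase-like genes, whose products are hydrolases or acyltransferases of the secretory pathway, had the most members higher of the families examined. Of 13 tested, 8 were higher and 1 lower, with a median difference of 1.11. SCPL34 had 10.36, 10.99 and 11.84 as lowest, median and highest in the epidermis, and no other array exceeded 9.79 (difference 1.72 ± 0.13, SE). SCPL45 was the exception, with 4.29, 4.60 and 4.92 in the epidermis, against 6.47, 6.90 and 7.22 in cortex, 7.77, 8.07 and 8.73 in endodermis and 6.46, 7.05 and 8.12 in stele. Both tested SKU5-similar genes were higher, sks15 by 3.05, and so were both tested STIG1-like genes, AT4G26880 by 3.20.

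**Figure D4:**
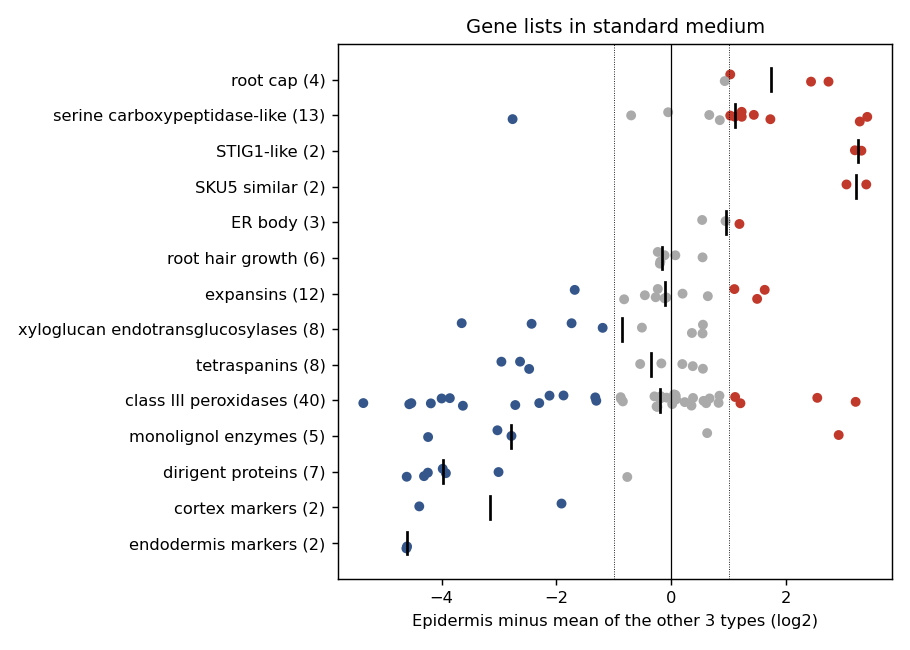
Epidermis minus the mean of the other 3 types (log2) for the tested members of 14 gene lists, with the number tested in brackets; red and blue points were called higher and lower, grey points were not called, black bars are list medians and dotted lines mark a difference of 1. Of 7 dirigent proteins 5 lie between -4.61 and -3.92, the other two are at -3.01 and -0.77, root hair genes lie near 0, and class III peroxidases run from -5.36 to 3.21.

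Of 8 tetraspanins, membrane organisers, 3 were lower, with differences of -2.96 for TET6, -2.63 for TET2 and -2.47 for TET5. The subtilisin-like protease SBT4.12 averaged 5.67 ± 0.82 in the epidermis, 9.47 ± 0.13 in cortex, 10.56 ± 0.28 in endodermis and 9.71 ± 0.48 in stele (SD, n = 6 each), a difference of -4.24, and the other 2 tested subtilases were not called. Of 3 jacalin-related lectins JAL33 was higher by 2.67 ± 0.20 (SE). Of 5 WRKY transcription factors WRKY22 (1.46) and WRKY53 (1.24) were higher against the mean, yet neither was called against stele (0.56 and 0.48). Of 10 cytochromes P450 1 was higher and 3 were lower, led by CYP71B34 at -3.06, with epidermis values from 2.51 to 2.85 and cortex values from 6.96 to 7.20. Of 33 UDP-glycosyltransferases 3 were higher and 5 lower, and of 11 beta-glucosidases 1 was higher (BGLU25, 1.08) and 1 lower (BGLU46, -2.73). Of 7 tau-class glutathione transferases GSTU22 was higher (1.07) and GSTU18 lower (-1.84). Of 4 tested histone genes HTB2 was higher by 1.10, and PRL, a replication licensing gene and the 1 tested cell division gene, differed by 0.65 and was not called.

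The epidermis profile was read at both times. At 1 h alone 461 genes were higher and 852 lower, and at 48 h alone 482 and 821, with 357 and 680 called at both. The excess itself changed between the times for 37 genes, 29 upward (0.398%) and 8 downward (0.11%), and 1048 genes had an unadjusted p under 0.05. Among the 37 were 5 of the 440 higher genes (1.14%) and 11 of the 815 lower genes (1.35%), against 0.508% of all tested genes, shares whose difference was not tested. The 29 and 8 moved with the fit and with single arrays. They were 4 and 1 in a fit to the 24 standard medium arrays alone and 14 and 4 with weights per cell type. Without epidermis 48 h replicate 3 they were 101 and 180, without replicate 1 of that group 9 and 5, without stele 1 h replicate 2 47 and 21, without epidermis 1 h replicate 2 16 upward, without stele 48 h replicate 1 14 downward, and without epidermis 48 h replicates 1 and 3 both 9 and 3.

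The largest change was in AT4G11190, a dirigent protein. In the epidermis it was 2.84, 3.37 and 4.10 at 1 h and 3.35, 3.30 and 3.12 at 48 h. In cortex it was 6.66, 6.32 and 6.56 at 1 h and 4.63, 4.54 and 4.90 at 48 h, and in endodermis 8.25, 8.79 and 8.77 at 1 h and 6.68, 5.57 and 5.78 at 48 h. Stele likewise had 7.79, 7.78 and 7.40 at 1 h and 4.54, 4.40 and 4.99 at 48 h. The epidermis was low at both times while the 3 inner types were lower at 48 h, so the deficit was -4.16 at 1 h and -1.86 at 48 h (change 2.30 ± 0.34, SE; adjusted p = 6.44e-06, limma). AGL42, a MADS-box factor, had epidermis values of 2.39 to 3.30 and a deficit of -1.03 at 1 h and -3.18 at 48 h, with cortex at 3.06, 3.12 and 3.18 at 1 h and 5.83, 5.86 and 5.68 at 48 h.

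WRKY53, a transcription factor of stress responses and senescence, had a larger excess at 48 h. Its epidermis values were 7.29, 6.45 and 7.11 at 1 h and 8.93, 8.09 and 7.34 at 48 h, and its endodermis values 6.80, 7.13 and 7.00 at 1 h and 6.04, 5.12 and 5.45 at 48 h. The excess was 0.20 at 1 h and 2.29 at 48 h (change 2.09 ± 0.40, SE; adjusted p = 0.00196, limma), and without epidermis 48 h replicate 1 the adjusted p was 0.0514. AT3G02840 had an excess of -0.98 at 1 h and 0.96 at 48 h, and its change of 1.94 was 1.64 without stele 1 h replicate 3.

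The differences in standard medium were computed without the salt arrays. These arrays did enter the estimate of spread, the level filter and the choice of probe set per gene. The same contrast within each salt time is thus a further reading of these genes, but not a wholly separate one. Of the 440 higher genes 363 (82.5%) were called higher again after 1 h of NaCl, 333 (75.7%) after 3 h, 323 (73.4%) after 8 h, 198 (45.0%) after 20 h, 285 (64.8%) after 32 h and 251 (57.0%) after 48 h. Over all tested genes the share called higher was 11.4%, 14.5%, 9.96%, 4.66%, 9.67% and 6.95% at those times. Of the 815 lower genes 606 (74.4%), 569 (69.8%), 564 (69.2%), 520 (63.8%), 546 (67.0%) and 540 (66.3%) were called lower again, against 10.5%, 11.5%, 12.6%, 10.6%, 12.2% and 11.5% of all genes. The fewest calls of the higher genes fell at 20 h, when calls over all genes were also fewest on that side. Their median difference was 1.55 at 1 h, 0.94 at 20 h and 1.08 at 48 h, and that of the lower genes -1.52, -1.32 and -1.42.

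Called the same way at all 6 salt times were 161 of the higher and 410 of the lower genes, and at none 41 and 113. The sign was called opposite at some salt time for 8 of the higher and 4 of the lower genes. Of the leading 12 excess genes 11 were called at every salt time, the exception being scpl28 at 0.65 after 20 h, and all 10 leading deficit genes were, with differences between -5.83 and -2.37. AT1G21340 differed by 3.29, 3.24, 3.00, 1.85, 2.24 and 1.85 over the 6 times, and sks16 by 3.70, 3.53, 3.74, 2.25, 3.48 and 3.50. GSO1 stayed between -5.12 and -4.37. The 4 root cap genes went different ways over the 6 times. AT1G65570 differed by 2.31, 1.95, 1.17, 0.15, 1.69 and 1.62, AT4G04460 stayed between 1.37 and 2.28, and scpl48 between 0.62 and 1.01. AT4G18425 differed by 1.58 at 1 h and by -1.13, -1.19, -1.05, -0.31 and -1.81 at the later times.

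**Figure D5:**
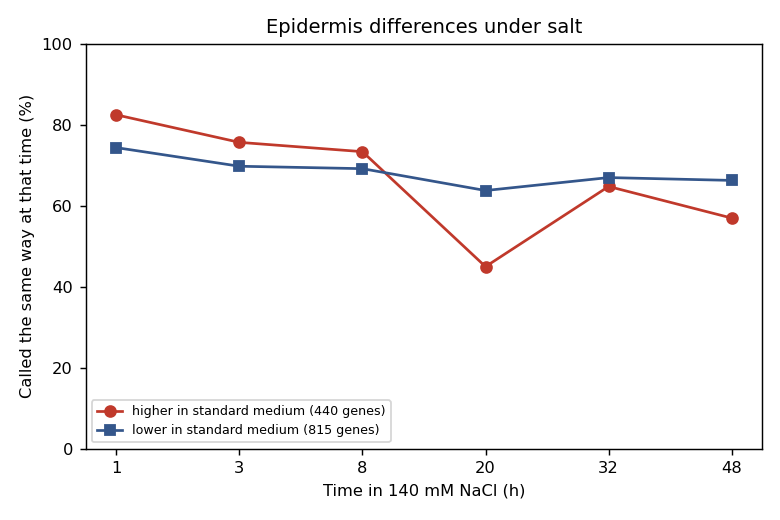
Share (%) of the 440 genes higher (red circles) and 815 genes lower (blue squares) in the epidermis in standard medium that were called the same way within each salt time, by time in 140 mM NaCl (h, categories not to scale). The higher genes run from 82.5% at 1 h to 45.0% at 20 h and 57.0% at 48 h, and the lower genes from 74.4% at 1 h to 63.8% at 20 h.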

How the data were processed

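RNA from sorted protoplasts was hybridised to 96 Affymetrix ATH1 arrays (3 in each of 32 groups) as biotin-labelled cRNA after one-cycle amplification, per the labels' protocols. The deposited values are log2 expression values made by the authors; Affymetrix Expression Console and GCRMA are named, without versions, per the submitters' processing notes. GCRMA corrects background from probe sequence, normalizes arrays and summarises probe sets, so low levels and the balance of higher and lower calls depend on it. Array medians were 4.50 to 4.96, and no 2 arrays were identical. The values came as a table of all arrays with no detection calls, and the number of arrays limits the precision.

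Of 22810 probe sets, 64 are controls, 13513 pair with 1 gene, 503 with several and 8730 with none listed in GEO's platform annotation. Gene symbols follow the TAIR10.1 table where the Entrez ID matched (13286 of 13356 genes). The brightest probe set per gene was kept (157 left out), and 7281 genes with a mean of at least 5 in 1 or more groups were tested. Contrasts were computed with limma 3.58.1 under R 4.3.3 (1 mean per group over 96 arrays, 64 residual degrees of freedom, eBayes, two-sided, Benjamini-Hochberg). The fit was tested on simulated data.

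The comparison, lists and rule for named genes were chosen with earlier results of these data known. The rule takes the 12 largest excesses and 10 largest deficits among called genes whose epidermis arrays lie beyond all 18 others, up to 4 members per list by size of difference, every tested marker, and the 4 largest changes between times. Family lists were compiled after the annotation was read. Alternatives were fits to the 24 standard arrays, weights per type, scaling, filters, probe set rules, a replicate block, each other type or array left out, and each time alone; leaving out arrays that stood apart was chosen after seeing the data. The labels do not say whether replicates were separate cultures, so the p-values cover only the spread among the deposited arrays, part of which may be technical.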

Additional observations from a re-analysis of the deposited data

Results flagged for a closer look

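The epidermis excess differed between 48 h and 1 h, by the test of that difference itself (limma, adjusted over all tested genes), for 7 of the 101 named genes, against 37 of all 7281. AT4G11190, AGL42, WRKY53 and AT3G02840 were named for this change, so their place here follows from the choice. The alternatives counted for these genes do not include those that left out a whole cell type. The change was 2.3 in AT4G11190 (adjusted p = 6.44e-06), which stayed called under every alternative counted, between 2.00 and 2.63. It was -2.15 in AGL42 (adjusted p = 0.00248), where only the fit to the 24 standard arrays ended the call (adjusted p = 0.0829). It was 2.09 in WRKY53 (adjusted p = 0.00196) and 1.94 in AT3G02840 (adjusted p = 0.00511), and both calls were lost in that fit and without epidermis 48 h replicate 1; that of WRKY53 was also lost without epidermis 48 h replicates 1 and 3. It was -1.55 in the root cap gene AT4G18425 (adjusted p = 0.0209), whose stele values were 6.74, 7.25 and 5.33 at 1 h and 9.13, 8.00 and 9.08 at 48 h, with 6 alternatives that ended the call. It was 1.32 in the jasmonate oxidase gene AT2G38240 (adjusted p = 0.025) and 1.34 in Prx37 (adjusted p = 0.0209), and both calls were lost without epidermis 48 h replicate 1 or 1 h replicate 2, that of Prx37 also without 1 h replicate 3. Both were also lost in the fit to the 24 standard arrays (adjusted p = 0.169 for AT2G38240 and 0.104 for Prx37), with weights per cell type (0.0762 and 0.0613) and without epidermis 48 h replicates 1 and 3 (0.467 and 0.396).

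A single epidermis array lay far from the other 5 for 4 named genes. AT3G49960 was 5.55 and SCN1 was 7.07 in epidermis 48 h replicate 1, both root hair genes. AT3G13610, a hydroxylase of coumarin synthesis for iron uptake, was 7.87 in epidermis 48 h replicate 3, and the lectin gene JAL34 was 11.8 in epidermis 1 h replicate 3. Chance gives such a flag in about 1 in 20 groups, and 101 genes were examined.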

How the results depend on the processing

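Counts of genes higher and lower in the epidermis kept within 1.5 times of 440 and 815 under every alternative that kept 1 value per gene, from 425 to 473 and from 780 to 857 when 1 array was left out; counts beyond each other type ranged from 220 to 273 and 472 to 519, those at all 6 salt times from 155 to 164 and 404 to 411, and changes of the excess from 9 to 101 upward and 5 to 180 downward. With all probe sets more features were tested, 13674 against 7281. These counts were then 773 and 1676, 428 and 1030, 288 and 843, and 60 and 20. The changes of the excess were 4 and 1 in the fit to the 24 standard arrays, 14 and 4 with weights per cell type, 9 and 3 without epidermis 48 h replicates 1 and 3, 9 and 2 when stele 1 h replicate 3 was left out too, 46 and 25 with cortex left out of the other types, and 53 and 29 with endodermis left out; the cause was not tested. Replicate numbers were shared by the groups, which were fitted as unpaired. Of 18 same-numbered pairs 2 correlated above 0.1 (range -0.224 to 0.313), and pairs with different numbers ran from -0.379 to 0.359. With 3 arrays per group these correlations cannot show whether equal numbers mark a shared origin. With a replicate block the counts were 440 and 815, 243 and 485, and 29 and 9, but in this balanced design the block leaves every difference unchanged. Of the 70 named genes called in the first comparison, 61 kept the call under all alternatives and 9 lost it in some (WRKY53, scpl48, EXPA4, XTH32, HTB2, CYP71B6, CYP71B28, BGLU25 and GSTU22), with no reversal. Levels near 5 and below limit what can be read of deficits, since no detection calls were at hand.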

Other observations

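Of 6054 probe sets that passed the level filter and that the annotation used here does not list with a gene, 318 were higher in the epidermis (5.25%) and 836 lower (13.8%), with the largest excess at 4.19 and the largest deficit at -5.36.

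Arrays of epidermis and stele were the more variable. The SD of a gene over 6 standard medium arrays had a median of 0.29 in the epidermis, 0.18 in cortex, 0.21 in endodermis and 0.29 in stele.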
